A study of Mus musculus with 23 samples.

Results

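Jejunal transcripts of mice on day 5 of egg white access were compared with those of mice on day 3, with both genotypes pooled. The comparison took every library of these states, 5 of challenge day 5 (2 Cpa3+/+ and 3 Cpa3Cre/+) and 4 of challenge day 3 (2 and 2), which are 9 of the 23 libraries of the series. Expression was measured by RNA sequencing of whole jejunum from which fat and Peyer's patches had been taken off. All 9 mice had been given 25 µg ovalbumin with 2 mg alum into the peritoneum on days 0 and 14. They could then drink either plain water or water holding 20% egg white and 8% sugar, from day 20 to day 22 in the day 3 groups and to day 24 in the day 5 groups. The amounts drunk were not given, so the days differ in time of access and may differ in dose. Cpa3+/+ mice are wild type. Cpa3Cre/+ mice carry Cre recombinase in 1 copy of the Cpa3 locus and are described as mast cell-deficient. As background, this allele is known to remove mast cells and to lower the number of basophils. Of the 9 libraries, 8 came from females, and Cpa3Cre/+ day 3 replicate 2 came from a male. Whether each library is a different mouse is not in the labels, so each p-value rests on the scatter among libraries, part or all of which may be technical. Total counts ran from 13.97 to 19.34 M (mega) on day 3 and from 10.94 to 13.86 M on day 5.

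Repeated oral antigen after immunization is a common model of intestinal food allergy. In this setting mucosal mast cells increase in the jejunum, and type 2 cytokines act on the epithelium, which answers with goblet, tuft and Paneth cell products. The jejunum also absorbs fat and sugar, makes cholesterol through enzymes under the control of SREBP2, renews itself from crypt stem cells, and follows the circadian clock and feeding time. In whole tissue, fewer cells of a type and less RNA per cell cannot be told apart.

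The targeted gene was read first, in CPM, the counts of a gene relative to the scaled size of its library. Cpa3 (ENSMUSG00000001865, chromosome 3, 20215620 to 20242181, minus strand of GRCm38) is the gene of a mast cell granule protease. In Cpa3+/+ jejunum it measured 17.4 and 13.1 CPM on day 3 and 4.13 and 22.3 CPM on day 5. In Cpa3Cre/+ jejunum it measured 0.984 and 0.709 CPM on day 3 and 1.35, 1.53 and 1.48 CPM on day 5. No Cpa3Cre/+ value reached the lowest Cpa3+/+ value, and the days overlapped within Cpa3+/+. The log2 fold change between the days was 0.22 ± 0.46 (SE). The tissue label was checked with the summed CPM of marker lists. The 20 absorptive enterocyte genes summed to 34307 to 118352 CPM, 12 genes of the proximal intestine to 7433 to 52212 CPM, and 9 genes of the distal intestine to 1641 to 3395 CPM, and all of these genes were detected in all 9 libraries.

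Cpa3Cre/+ day 5 replicate 3 stood apart from the other 8 libraries. It held the fewest detected genes (20932, against 22510 to 22638 in the other day 5 libraries) and the highest absorptive enterocyte sum (118352 CPM, against 34307 to 72318 CPM in the other 8). Its rank correlation with the other replicates of its group was 0.945 and 0.952, whereas replicate pairs without it lay between 0.973 and 0.990. Results are therefore given with all 9 libraries, which is the comparison as designed, and without this library (8 libraries, 4 of each day). Showing the fit of 8 libraries throughout was chosen after the values were seen. Taking out a library that lies far from its group lowers the scatter within day 5. Adjusted p-values in 8 libraries, GC-adjusted or not, describe those libraries and are not independent support for a change.

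The days also differed in the balance of GC-rich and GC-poor transcripts. Genes were sorted into 5 equal bins by the GC content of their transcripts, and the median log2 deviation of the richest bin minus that of the poorest bin was taken in each library. On day 3 this difference ran from 0.05 to 0.44. On day 5 it was −0.79 and −0.23 in Cpa3+/+, −0.42 and −0.70 in Cpa3Cre/+ replicates 1 and 2, and 0.22 in Cpa3Cre/+ replicate 3. The other 14 libraries of the series lay between −0.24 and 0.45, so 3 of the 5 day 5 libraries fell below that range. Because this balance moved with the day, an adjustment that takes each library's GC trend out of the counts is given beside the results (GC-adjusted), and it was chosen after seeing the data.

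**Figure D1:**
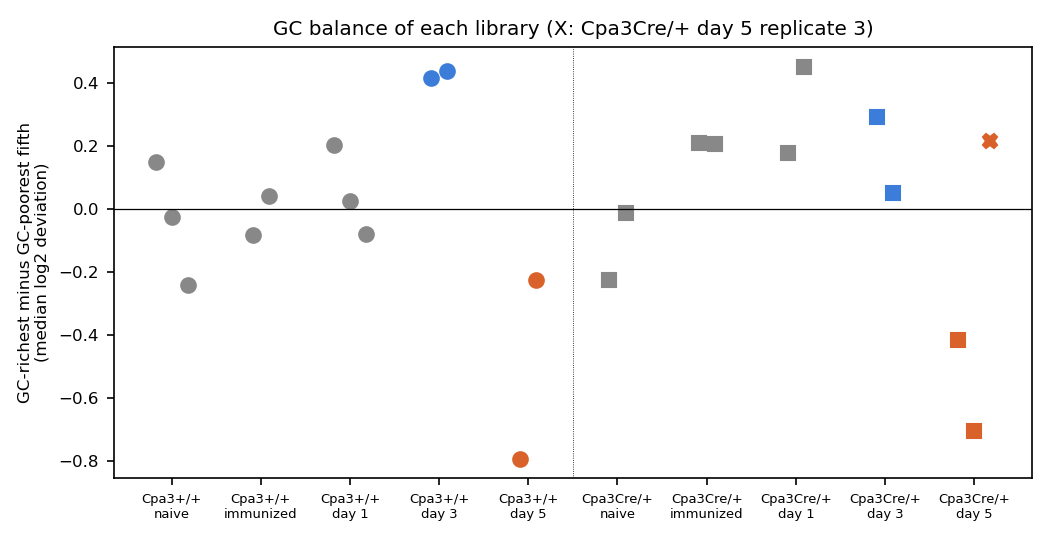
GC balance of the 23 libraries: the y axis gives the median log2 deviation of genes in the GC-richest bin minus that in the GC-poorest bin, and each point is 1 library (circles Cpa3+/+, squares Cpa3Cre/+, blue day 3, orange day 5, grey other states, cross Cpa3Cre/+ day 5 replicate 3). The day 3 libraries lie at 0.05 to 0.44, and the day 5 libraries at −0.79 to −0.23 except the cross at 0.22.

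With all 9 libraries, 0 of 16375 genes tested were called higher on day 5 (0%) and 0 were called lower (0%) by edgeR, where called means an adjusted p under 0.05. At an unadjusted p under 0.05 there were 2730 genes (16.7%). DESeq2 on the same libraries called 145 genes higher (0.885%) and 415 lower (2.53%). Without Cpa3Cre/+ day 5 replicate 3, edgeR called 1424 genes higher (8.76%) and 2327 lower (14.3%) of 16258, and leaving out any other single library gave 0. In the GC-adjusted fit of those 8 libraries, 141 genes were called higher (0.868%) and 393 lower (2.42%). In 521 genes every day 5 library lay above every day 3 library (3.18%), and in 706 every day 5 library lay below (4.31%).

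The calls followed GC content. In the 8 libraries, genes called lower had a median GC content of 57.4% and genes called higher 43.7%, against 49.5% for genes not called. In the GC-poorest bin 24.5% of genes were called higher and 0.519% lower, and in the richest bin 0.0306% were called higher and 49.7% lower. After GC adjustment the called genes of both directions had similar median GC contents (55.2% higher, 53.7% lower), both above that of genes not called (49.8%). Of the 534 genes called there, 427 were also called in the same direction without the adjustment.

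**Figure D2:**
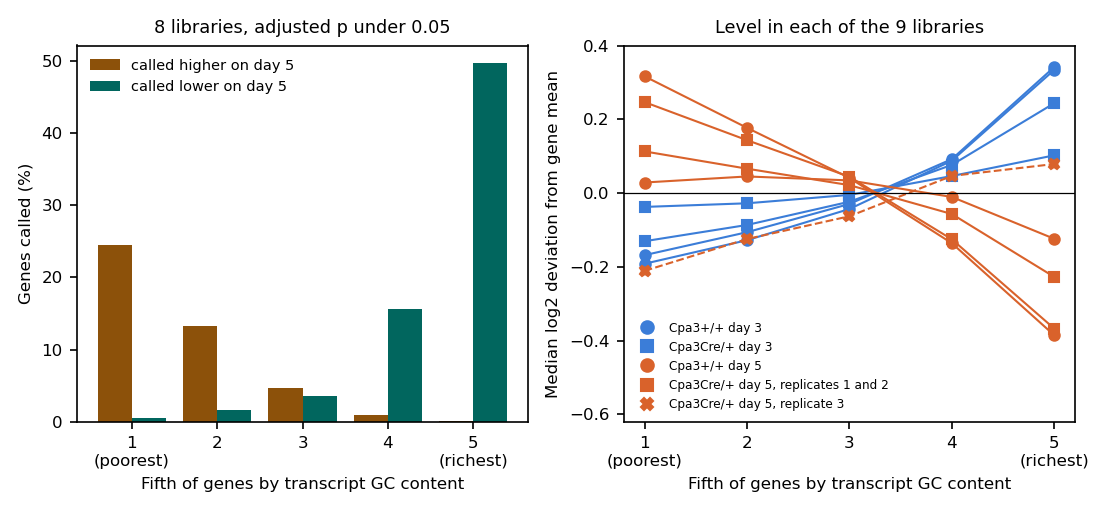
Left, the share of genes called higher or lower on day 5 (%) in each bin of transcript GC content, 8 libraries; right, the median log2 deviation of each bin from the gene mean in each of the 9 libraries. The other 4 day 5 lines end lower than they start and the day 3 lines end higher, and the dashed line of Cpa3Cre/+ day 5 replicate 3 rises with day 3.

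The genes nearest to a call on the higher side belonged in part to cholesterol synthesis. Cyp51 (ENSMUSG00000001467, chromosome 5, 4081145 to 4104746, minus strand) encodes lanosterol demethylase. It measured 34.6 and 37.7 CPM in Cpa3+/+ and 37.0 and 38.0 CPM in Cpa3Cre/+ on day 3. On day 5 it measured 57.3 and 59.4 CPM in Cpa3+/+ and 60.1, 62.3 and 57.5 CPM in Cpa3Cre/+. All 5 day 5 libraries, replicate 3 of Cpa3Cre/+ included, lay above all 4 day 3 libraries. The log2 fold change was 0.68 ± 0.10 (SE; 1.61-fold), with an edgeR adjusted p of 0.0914 in 9 libraries, 0.00142 in 8 and 0.0222 in the GC-adjusted 8. It was 0.69 ± 0.16 within Cpa3+/+ and 0.68 ± 0.15 within Cpa3Cre/+. Hmgcs1 (ENSMUSG00000093930, chromosome 13, 119690379 to 119708260, plus strand) encodes the synthase that makes HMG-CoA. It measured 99.9, 112, 104 and 112 CPM in the 4 day 3 libraries and 167, 142, 166, 168 and 160 CPM in the 5 day 5 libraries. These groups did not overlap either. Its log2 fold change was 0.58 ± 0.12 with an edgeR adjusted p of 0.119 in 9 libraries and 0.00412 in 8, and it was not called after GC adjustment (0.28, adjusted p = 0.139). Msmo1, a sterol methyl oxidase, measured 41.2 to 50.7 CPM on day 3 and 51.7 to 74.0 CPM on day 5, without overlap (0.44 ± 0.12, edgeR adjusted p = 0.162 in 9 libraries and 0.0174 in 8).

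The promoter windows of these 3 genes are shown because the days did not overlap in any of them, and because the sterol response element and the CCAAT box are the known landmarks of such promoters. Sequences are the 250 bases before the RefSeq start on GRCm38.p6, read 5′ to 3′ on the gene's strand. Capitals mark each CCAAT and its reverse complement ATTGG. The windows are chr5:4104698-4104947 (minus strand), chr13:119690101-119690350 (plus strand) and chr8:64733579-64733828 (minus strand).
Cyp51: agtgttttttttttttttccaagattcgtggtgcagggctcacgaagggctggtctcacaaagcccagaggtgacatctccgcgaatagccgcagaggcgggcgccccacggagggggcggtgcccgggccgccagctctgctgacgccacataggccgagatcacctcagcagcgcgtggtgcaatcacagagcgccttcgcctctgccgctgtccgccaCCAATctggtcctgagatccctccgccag
Hmgcs1: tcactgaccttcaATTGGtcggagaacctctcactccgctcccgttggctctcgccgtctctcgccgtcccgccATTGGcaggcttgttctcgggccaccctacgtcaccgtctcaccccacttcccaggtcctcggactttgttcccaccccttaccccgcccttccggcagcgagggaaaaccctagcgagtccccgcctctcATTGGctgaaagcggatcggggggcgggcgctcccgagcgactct
Msmo1: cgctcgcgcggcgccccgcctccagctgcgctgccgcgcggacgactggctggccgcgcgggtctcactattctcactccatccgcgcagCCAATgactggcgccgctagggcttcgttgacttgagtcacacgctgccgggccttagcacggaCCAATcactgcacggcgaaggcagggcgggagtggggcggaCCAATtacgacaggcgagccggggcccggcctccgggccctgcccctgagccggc
Of the 20 list members, 12 had a window, and all 12 held CCAAT or ATTGG in at least 1 window (12 of 14 windows), against 33.8% of 32851 windows of that length. The 12 include Mvk, Mvd and Srebf2, which were called lower in 8 libraries. CCAAT or ATTGG was also found in 7 of the 8 circadian clock repressors with a window (8 of 9 windows). That list, described below, had mostly negative estimates, so these letters are not particular to genes higher on day 5. The letters TCACNCCAC or GTGGNGTGA, a form of the sterol response element, were found in Hmgcs1 among these genes and in 1.05% of all windows. CACGTG, searched likewise on both strands, was found in Dhcr7, Insig1 and Sc5d and in 6.02% of all windows. No match says only that these letters are not in this window.

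Over the list of cholesterol synthesis and sterol response, 15 of 20 members had a positive log2 fold change in 9 libraries (median 0.25), against 8418 of 16375 genes tested (median 0.01). Without overlap between the days, 7 members lay higher and 0 lower, against 3.18% and 4.31% of all genes. In 9 libraries edgeR called none and DESeq2 called 5 higher and 0 lower, against 0.885% and 2.53%. In 8 libraries edgeR called 8 members higher and 3 lower, against 8.76% and 14.3%, so the 3 lower are near the share of all genes. After GC adjustment it called 5 higher (Cyp51, Fdft1 and Sqle among them) and 0 lower, against 0.868% and 2.42%. Fdft1, squalene synthase, had 28.0 to 32.2 CPM on day 3 and 36.8 to 47.9 CPM on day 5. Sqle, squalene epoxidase, had 19.5 to 24.4 CPM on day 3 and 24.5 to 38.3 CPM on day 5. The lowest day 5 value of Sqle was that of Cpa3Cre/+ replicate 3. The sterol dehydrogenase Nsdhl had 28.2 to 36.3 CPM on day 3 and 36.8 to 46.0 CPM on day 5. The 3 members called lower in 8 libraries were Mvk, Mvd and Srebf2, which encode mevalonate kinase, mevalonate diphosphate decarboxylase and SREBP2. Their transcripts have GC contents of 59.6, 59.3 and 57.9%, and none of them was called after GC adjustment. Mvk had 10.9 to 16.7 CPM on day 3 and 5.73 to 7.49 CPM in 4 day 5 libraries, but 15.6 CPM in Cpa3Cre/+ day 5 replicate 3. The median of the list was 0.27 within Cpa3+/+ and 0.26 within Cpa3Cre/+.

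**Figure D3:**
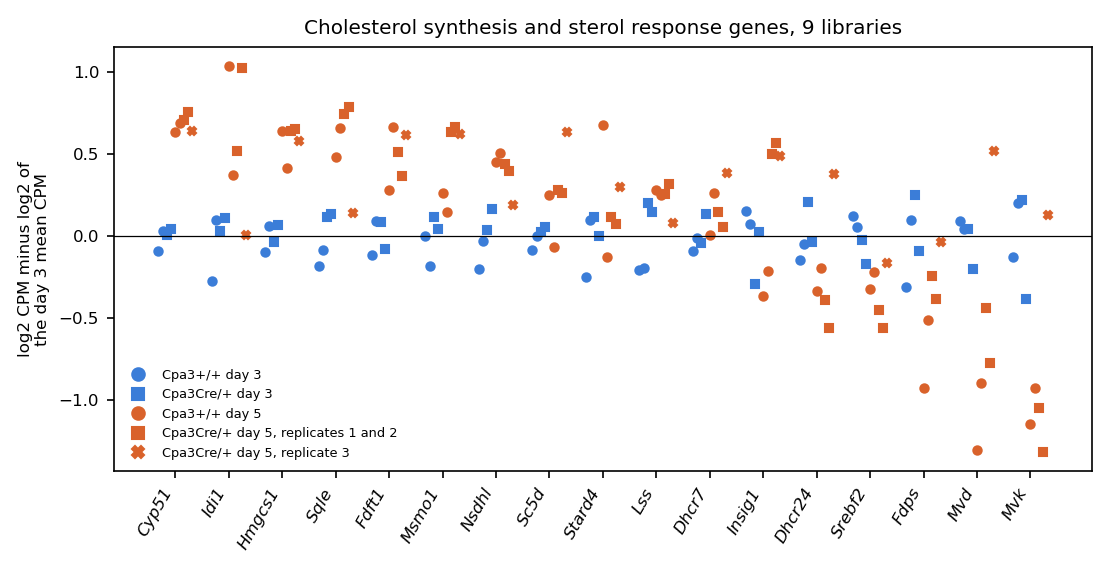
Log2 CPM of genes from the cholesterol synthesis and sterol response list minus the log2 of its day 3 mean CPM, with 1 point per library (circles Cpa3+/+, squares Cpa3Cre/+, blue day 3, orange day 5, crosses Cpa3Cre/+ day 5 replicate 3). The orange points of Cyp51, Hmgcs1, Msmo1, Fdft1, Sqle and Nsdhl lie above all blue points, and those of Mvd and Mvk lie below except the cross.

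The list of sterol export and lipogenesis was mixed, with 6 of 15 positive log2 fold changes in 9 libraries (median −0.05), 3 members called higher and 4 lower in 8, and 1 higher and 2 lower in the GC-adjusted 8. Over all genes the shares were 8.76% higher and 14.3% lower in 8, and 0.868% and 2.42% in the GC-adjusted 8. Elovl6, an elongase of saturated fatty acids, measured 53.2 to 76.4 CPM on day 3 and 83.8 to 177 CPM on day 5 (0.85 ± 0.21, edgeR adjusted p = 0.158 in 9 libraries and 0.0106 in 8). Elovl5, an elongase of polyunsaturated fatty acids, measured 38.7 to 48.0 CPM on day 3 and 51.4 to 67.3 CPM on day 5. Neither gene's days overlapped, and neither was called after GC adjustment. Fasn, fatty acid synthase, lay lower without overlap, at 41.1 to 49.1 CPM on day 3 and 27.8 to 34.2 CPM on day 5. Its log2 fold change was −0.42 ± 0.12, with an edgeR adjusted p of 0.168, and turned to 0.11 after GC adjustment of the 9 libraries. Srebf1, which encodes SREBP1, measured 140, 118, 109 and 89.7 CPM on day 3, 32.4 and 40.6 CPM in Cpa3+/+ on day 5, and 44.2, 42.9 and 120 CPM in Cpa3Cre/+ on day 5. Only Cpa3Cre/+ day 5 replicate 3 reached the day 3 range. Srebf1 was called lower in 8 libraries (−1.50, edgeR adjusted p = 0.00129) and after GC adjustment (adjusted p = 0.00902).

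Of the 18 genes of fat absorption and chylomicron assembly, 4 had a positive log2 fold change in 9 libraries (median −0.32), and edgeR called none. In 8 libraries it called 0 higher and 11 lower, and after GC adjustment 0 higher and 6 lower. The shares called lower over all genes were 14.3% and 2.42%. Dgat2, which makes triglyceride from diglyceride, measured 449, 287, 472 and 318 CPM on day 3. On day 5 it measured 91.4 and 144 CPM in Cpa3+/+ and 179, 195 and 363 CPM in Cpa3Cre/+. The value of Cpa3Cre/+ replicate 3 lay within the day 3 range and the others below it (−1.13 ± 0.31, edgeR adjusted p = 0.17 in 9 libraries, 0.00303 in 8 and 0.0267 in the GC-adjusted 8). Creb3l3, a transcription factor of triglyceride metabolism, had 456 to 616 CPM on day 3, 167 to 331 CPM in 4 day 5 libraries and 745 CPM in Cpa3Cre/+ day 5 replicate 3. Cd36, a fatty acid receptor, had 246 to 416 CPM on day 3 and 148 to 379 CPM on day 5. Apoa4, an apolipoprotein of chylomicrons, had 13443 to 23101 CPM on day 3, 2278 and 6293 CPM in Cpa3+/+ on day 5, and 9909, 9215 and 33559 CPM in Cpa3Cre/+ on day 5. The median of the list was −0.83 within Cpa3+/+ and 0.20 within Cpa3Cre/+. The absorptive enterocyte sum was lowest in the same Cpa3+/+ day 5 libraries (34307 and 35737 CPM) and highest in Cpa3Cre/+ day 5 replicate 3, and its part in the result was not tested.

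The other genes named on the higher side, taken by smallest p, were not called in 9 libraries (edgeR adjusted p from 0.0914 to 0.158 over the 12), and all 12 were called in 8 libraries and by DESeq2. Of the 12, 10 did not overlap between the days, against 3.18% of all genes. After GC adjustment 4 were called (Cyp51, Klk1, Mptx1 and Slc44a3), against 0.868%. Taking genes by smallest p favours both non-overlap and calls in fits that share libraries, so these counts are not independent support. Klk1 (ENSMUSG00000063903, chromosome 7, 44225360 to 44229618, plus strand) encodes a tissue kallikrein. It measured 56.3, 70.3, 49.9 and 48.8 CPM on day 3 and 84.2, 98.5, 71.7, 70.2 and 68.1 CPM on day 5, with an overlap between a Cpa3+/+ day 3 library and Cpa3Cre/+ day 5 libraries. Within each genotype every day 5 library of Klk1 lay higher (0.52 ± 0.12, edgeR adjusted p = 0.133). Mptx1 (ENSMUSG00000026531, chromosome 1, 174330518 to 174332873, plus strand) encodes a mucosal pentraxin. It measured 61.9, 93.1, 38.0 and 60.8 CPM on day 3, 168 and 299 CPM in Cpa3+/+ on day 5, and 324, 318 and 64.0 CPM in Cpa3Cre/+ on day 5. It had the largest log2 fold change of the 12 (1.95 ± 0.46, 3.86-fold), and Cpa3Cre/+ day 5 replicate 3 lay at the day 3 level. The remaining 7 had log2 fold changes of 0.43 to 0.51. They were Ufsp2, a protease of the modifier UFM1, Slc44a3 of the choline transporter-like family, the prolyl isomerase Ppig, the TFIIIC subunit Gtf3c6, the NAD hydrolase Cd38, the elongase Elovl5 and the ubiquitin-binding protein Plaa. The 12 genes had a median GC content of 44.4%, and their median log2 fold change was 0.50 in 9 libraries and 0.29 in the GC-adjusted 8.

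On the lower side all 12 named genes, also taken by smallest p, were without overlap between the days, against 4.31% of all genes. Their edgeR adjusted p ran from 0.0643 to 0.0914 in 9 libraries, and all 12 were called in 8 libraries and by DESeq2. As on the higher side, the choice by smallest p favours such counts, which are not independent support. Rhbdf1 (ENSMUSG00000020282, chromosome 11, 32209585 to 32222300, minus strand), an inactive rhomboid protein that acts on the maturation of the sheddase ADAM17, had the smallest p of all genes. It measured 14.8, 16.1, 14.6 and 13.8 CPM on day 3 and 5.46, 5.87, 5.24, 4.11 and 5.63 CPM on day 5. The highest day 5 library lay well below the lowest day 3 library in both genotypes, and Cpa3Cre/+ day 5 replicate 3 lay with the other day 5 libraries. The log2 fold change was −1.48 ± 0.16 (2.79-fold lower), with an edgeR adjusted p of 0.0643 in 9 libraries, 0.00129 in 8 and 0.0379 in the GC-adjusted 8, where the estimate was −0.69. Ppp2r3d (ENSMUSG00000093803, chromosome 9, 124422622 to 124476898, minus strand), a regulatory subunit of protein phosphatase 2A, measured 31.3, 29.9, 19.2 and 18.5 CPM on day 3 and 10.8, 11.0, 9.59, 11.0 and 11.1 CPM on day 5. It was the one named gene on this side with a GC content below that of the median gene tested (46.1% against 49.9%), and its log2 fold change was −1.13 ± 0.17 in 9 libraries and −1.41 in the GC-adjusted 8 (edgeR adjusted p = 0.00509). The third gene called after adjustment was Map1s, a microtubule-associated protein, at 5.57 to 13.4 CPM on day 3 and 1.85 to 3.14 CPM on day 5.

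A further 3 genes of the lower side encode basement membrane or matrix proteins. Hspg2, perlecan, measured 50.8 to 66.7 CPM on day 3 and 27.3 to 36.1 CPM on day 5 (−0.85 ± 0.12, edgeR adjusted p = 0.0843), and the log2 fold change was 0.04 in the GC-adjusted 8. Hmcn2, hemicentin 2, measured 37.7 to 53.6 CPM on day 3 and 7.84 to 18.4 CPM on day 5 (−1.67 ± 0.24). Lamb2, a laminin chain, measured 20.1 to 26.6 CPM on day 3 and 6.69 to 14.3 CPM on day 5 (−1.20 ± 0.18). Neither Hmcn2 nor Lamb2 was called after adjustment (edgeR adjusted p = 0.0907 and 0.101). The other 6 were Gigyf1, Fam193b, the Ral exchange factor Rgl2, the kainate receptor subunit Grik5, the guanine nucleotide exchange factor Plekhg5 and the methyl-CpG-binding domain gene Mbd6, and none of them was called after adjustment. For Mbd6 the sign turned, from −0.74 in 9 libraries to 0.29 in the GC-adjusted 8. The 12 genes had a median GC content of 60.4%, and their median log2 fold change was −1.17 in 9 libraries and −0.37 in the GC-adjusted 8.

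Repressors of the circadian clock had mostly negative estimates, and the list of activators and output factors was mixed. Of 10 repressors, 1 had a positive log2 fold change in 9 libraries (median −0.68), 6 had an unadjusted p under 0.05, and edgeR called none. In 8 libraries 5 were called lower and 0 higher, and in the GC-adjusted 8 there were 1 and 0. Over all genes, 14.3% were called lower in 8 libraries and 2.42% in the GC-adjusted 8. Per3 (ENSMUSG00000028957, chromosome 4, 151003652 to 151044665, minus strand), a period protein, measured 17.6 and 9.35 CPM in Cpa3+/+ and 27.0 and 17.6 CPM in Cpa3Cre/+ on day 3. On day 5 it measured 5.62 and 8.16 CPM in Cpa3+/+ and 11.6, 6.61 and 8.30 CPM in Cpa3Cre/+. Every day 5 library lay below the day 3 libraries of its own genotype (−1.17 ± 0.26, edgeR adjusted p = 0.133 in 9 libraries, 0.0152 in 8 and 0.0545 in the GC-adjusted 8). Per1 had 8.91 to 35.3 CPM on day 3 and 6.45 to 10.7 CPM on day 5. Cry2, a cryptochrome, had 16.2 to 28.5 CPM and 8.55 to 15.9 CPM, without overlap. Of the 9 clock activators and output factors 5 had a positive log2 fold change (median 0.08), and 2 were called lower and 0 higher in 8 libraries. Its output factors Tef and Dbp had negative estimates (−1.03 and −1.85), with edgeR adjusted p of 0.152 and 0.167 in 9 libraries and 0.015 and 0.0131 in 8. Dbp, an activator of D-box genes, had 32.1 to 75.4 CPM on day 3, 5.04 and 8.70 CPM in Cpa3+/+ on day 5, and 21.0, 6.69 and 40.1 CPM in Cpa3Cre/+ on day 5. Arntl, which encodes the activator BMAL1, had 19.0 to 34.9 CPM on day 3 and 32.8 to 53.2 CPM on day 5 (0.60 ± 0.20, edgeR adjusted p = 0.228, and 0.0538 in 8). The hour of tissue collection was not given, and its part in these values was not tested.

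The window before the start of Per3, chr4:151044666-151044915 on the minus strand of GRCm38.p6, is shown because D-box letters occur in it. Capitals mark TTANGTAA, searched with its reverse complement TTACNTAA.
Per3: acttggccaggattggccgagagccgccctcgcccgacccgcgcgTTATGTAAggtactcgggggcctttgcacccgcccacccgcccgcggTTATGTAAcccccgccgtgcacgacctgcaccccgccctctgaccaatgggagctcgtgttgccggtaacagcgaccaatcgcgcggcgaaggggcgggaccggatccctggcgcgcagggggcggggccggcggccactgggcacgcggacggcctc
Per3 held it in 2 places, no other clock repressor or clock activator window held it, and 2.06% of all 32851 windows did.

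Genes induced by glucocorticoids and immediate early genes lay on the same side. Of 14 glucocorticoid induced genes, 1 had a positive log2 fold change (median −0.82), and of 17 immediate early genes 1 had (median −0.57), with none called in 9 libraries. In 8 libraries edgeR called 4 and 5 of them lower and none higher, and in the GC-adjusted 8 it called 0 and 1 lower. The shares called lower over all genes were 14.3% in 8 libraries and 2.42% in the GC-adjusted 8. The glucocorticoid list was highest in Cpa3Cre/+ day 3 replicate 1, where the mean log2 deviation of its members was 1.10, against 0.03 to 0.26 in the other day 3 libraries. Its summed level in Cpa3Cre/+ day 5 replicate 3 (1558 CPM) lay above 3 of the 4 day 3 libraries. Sgk1, a kinase that regulates sodium transport, had 61.1 to 183 CPM on day 3 and 51.5 to 95.0 CPM on day 5 (−0.77 ± 0.26, edgeR adjusted p = 0.227). Fkbp5, a cochaperone of the glucocorticoid receptor, had 140 CPM in Cpa3Cre/+ day 3 replicate 1, 22.1 to 29.8 CPM in the other day 3 libraries and 13.1 to 25.0 CPM on day 5. That single library therefore weighed on its log2 fold change of −1.39 ± 0.47 (edgeR adjusted p = 0.228). Jun, an AP-1 subunit, had 34.8 to 70.6 CPM on day 3 and 21.6 to 38.7 CPM on day 5, and Ier2 had 20.2 to 57.1 CPM on day 3, 9.76 to 13.8 CPM in 4 day 5 libraries and 32.1 CPM in Cpa3Cre/+ day 5 replicate 3. Junb, named after its values were seen, ranged widely, from 81.6, 119, 44.5 and 19.8 CPM on day 3 to 3.22, 7.35, 9.51, 5.73 and 45.9 CPM on day 5. Its transcript has a GC content of 62.6%.

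Paneth cells secrete antimicrobial peptides at the crypt base. All 13 Paneth cell genes tested had a positive log2 fold change in 9 libraries (median 0.49), and edgeR called none of them. In 8 libraries 8 were called higher and 0 lower, and in the GC-adjusted 8 there were 4 and 0. The shares called higher over all genes were 8.76% and 0.868%. Defa30, an antimicrobial defensin of a family with near-identical copies, had 881, 1091, 700 and 847 CPM on day 3, 1789 and 2280 CPM in Cpa3+/+ on day 5, and 1482, 1260 and 485 CPM in Cpa3Cre/+ on day 5. The 4 day 5 libraries of the 8 lay above day 3 and replicate 3 of Cpa3Cre/+ lay below it (0.73 ± 0.31, edgeR adjusted p = 0.29 in 9 libraries, 0.00306 in 8 and 0.0142 in the GC-adjusted 8). Itln1, an intelectin that binds microbial sugars, had 1126 to 2146 CPM on day 3, 2541 to 3951 CPM in the same 4 day 5 libraries and 894 CPM in Cpa3Cre/+ replicate 3. Ang4, a bactericidal ribonuclease, had 161 to 310 CPM on day 3 and 295, 621, 1091, 716 and 88.6 CPM on day 5. The summed Paneth cell level was 12423 to 18916 CPM on day 3, 31784 and 29778 CPM in Cpa3+/+ on day 5, and 21146, 16345 and 6836 CPM in Cpa3Cre/+ on day 5.

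Goblet cell genes had 8 of 12 positive log2 fold changes (median 0.25), with 3 called higher and 2 lower in 8 libraries and 2 higher and 0 lower in the GC-adjusted 8. Over all genes 8.76% were called higher and 14.3% lower in 8 libraries, so the 2 lower are near that share. In the GC-adjusted 8 the shares were 0.868% and 2.42%. Agr2, a protein disulfide isomerase needed for mucin folding, had 172 to 269 CPM on day 3 and 207 to 526 CPM on day 5 (0.68 ± 0.23, edgeR adjusted p = 0.234). Spink4, a goblet cell peptide, had 271 to 440 CPM on day 3 and 319 to 590 CPM on day 5 (adjusted p = 0.275, and 0.0414 in the GC-adjusted 8). Among proliferation genes 18 of 20 were positive (median 0.31). In 8 libraries 9 of them were called higher, against 8.76% of all genes, and 0 lower. None was called after GC adjustment. The median was 0.68 within Cpa3+/+ and 0.08 within Cpa3Cre/+. Cenpe, a kinetochore motor, had 14.3 to 19.6 CPM on day 3 and 16.0 CPM or more on day 5, with a mean of 29.5 CPM over the 5 libraries. Rrm2, a subunit of ribonucleotide reductase, had 25.9 to 29.8 CPM on day 3 and 29.1 to 46.7 CPM on day 5. Olfm4, a crypt base marker, had 775 to 856 CPM on day 3, 1115 to 1487 CPM in 4 day 5 libraries and 597 CPM in Cpa3Cre/+ replicate 3 (edgeR adjusted p = 0.296 in 9 libraries and 0.00477 in 8). The 12 stem cell genes had 8 positive log2 fold changes (median 0.07).

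**Figure D4:**
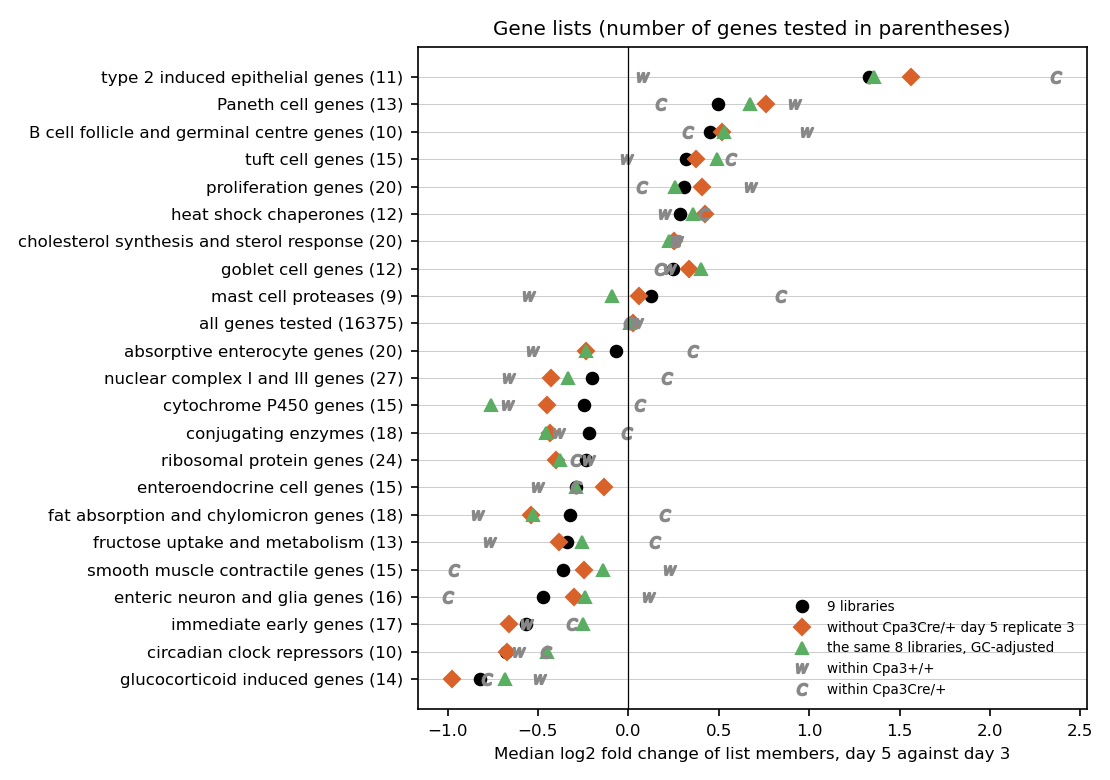
Median log2 fold change of the members of 22 gene lists and of all genes tested, day 5 against day 3, in 9 libraries (black), in 8 libraries (orange), in the GC-adjusted 8 (green), and within each genotype (letters W and C). The sterol list lies at 0.22 to 0.27 in every fit shown. Many other lists have unlike medians in the 2 genotypes, a difference that was not tested for lists. Among them are the fat absorption, smooth muscle, neuron, type 2, mast cell protease, complex I and III, absorptive enterocyte, fructose and cytochrome P450 lists.

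The change between the days was then set side by side in the 2 genotypes, since pooling assumes that it is alike. The interaction, which is the difference of the log2 fold changes (Cpa3Cre/+ minus Cpa3+/+), was called for 0 of 16375 genes (0%) by edgeR. There 1321 genes had an unadjusted p under 0.05, and DESeq2 called 28. Within Cpa3+/+ edgeR called 1 gene (0.00611%), 2977 genes had an unadjusted p under 0.05, and DESeq2 called 615. Within Cpa3Cre/+ edgeR called 0 (0%), 1423 had an unadjusted p under 0.05, and DESeq2 called 63.

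The 1 gene called within Cpa3+/+ was Iglc3 (ENSMUSG00000105547, chromosome 16, 19065230 to 19065681, minus strand), a constant region gene of the immunoglobulin lambda light chain. It measured 10.9 and 10.3 CPM on day 3 and 79.8 and 116 CPM on day 5 in Cpa3+/+, so it rose by 3.21 ± 0.30 (SE) on the log2 scale (edgeR adjusted p = 0.0352). In Cpa3Cre/+ it measured 10.8 and 13.8 CPM on day 3 and 17.2, 11.3 and 11.0 CPM on day 5 (log2 fold change 0.10 ± 0.26). The interaction of −3.11 ± 0.39 was not called by edgeR (adjusted p = 0.171, and 0.592 in all 23 libraries). With the replicate block edgeR did call it (adjusted p = 0.0344). DESeq2 called it and the rise within Cpa3+/+ (adjusted p = 4.56e-08 and 1.48e-18). The Iglc3 call within Cpa3+/+ was lost in the edgeR fit of all 23 libraries (adjusted p = 0.0528). It was also lost when any 1 of 7 libraries was left out (adjusted p from 0.0596 to 0.494), namely each Cpa3+/+ library, each Cpa3Cre/+ day 3 library or Cpa3Cre/+ day 5 replicate 2. Lambda constant genes are similar in sequence and can share reads, and 2 libraries carry the rise.

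Cd55, a membrane protein that restrains complement, came nearest to a call within Cpa3Cre/+ and in the interaction. In Cpa3+/+ it measured 57.8 and 72.8 CPM on day 3 and 45.4 and 48.6 CPM on day 5. In Cpa3Cre/+ it measured 46.7 and 49.6 CPM on day 3 and 181, 199 and 151 CPM on day 5. The 3 Cpa3Cre/+ day 5 libraries, replicate 3 included, lay above all others. Within Cpa3Cre/+ the log2 fold change was 1.88 ± 0.20 (edgeR adjusted p = 0.0753). The interaction was 2.35 ± 0.28 (edgeR adjusted p = 0.171, and 0.0127 without Cpa3Cre/+ day 5 replicate 3). DESeq2 called both (adjusted p = 1.75e-16 and 8.27e-11), as did edgeR with the replicate block (adjusted p = 0.000531 and 0.00327). The edgeR fit of all 23 libraries called neither (adjusted p = 0.609 and 0.592). The next smallest p within Cpa3Cre/+ belonged to Rhbdf1 and Hmcn2, at −1.51 ± 0.23 and −1.95 ± 0.30 (edgeR adjusted p = 0.5 for both). In the interaction the next smallest p after Cd55 and Iglc3 belonged to Ltb4r2, a leukotriene B4 receptor, at 2.20 ± 0.38 (edgeR adjusted p = 0.605). It measured 20.7 and 21.9 CPM on day 3 and 7.19 and 7.02 CPM on day 5 in Cpa3+/+. In Cpa3Cre/+ it measured 13.6 and 14.8 CPM on day 3 and 15.7, 21.7 and 27.9 CPM on day 5. DESeq2 called this interaction (adjusted p = 0.00263), and Rhbdf1 and Hmcn2 within Cpa3Cre/+ (adjusted p = 4.69e-05 for both).

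Epithelial genes known to be induced by type 2 cytokines were high in 2 of the 3 Cpa3Cre/+ day 5 libraries. Of the 11 tested, 10 had a positive log2 fold change in 9 libraries, with a median of 1.33, and edgeR called none. The median was 0.08 within Cpa3+/+ and 2.37 within Cpa3Cre/+. In 8 libraries 3 were called higher and 1 lower, and in the GC-adjusted 8 there were 2 and 0. Over all genes the shares were 8.76% and 14.3% in 8 libraries, and 0.868% and 2.42% in the GC-adjusted 8. Retnlb, the goblet cell peptide RELM beta, had 5.69 and 7.02 CPM in Cpa3Cre/+ day 5 replicates 1 and 2 and 0 to 0.607 CPM in the other 7 libraries. Its edgeR adjusted p was 0.209 in 9 libraries and 0.00803 in 8, and its log2 fold change rests on these 2 libraries.

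The following genes, not all of them particular to that response, were chosen after their values were seen. Pla2g4c, a cytosolic phospholipase A2 (ENSMUSG00000033847, chromosome 7, 13324655 to 13360672, plus strand), had 25.2 and 69.5 CPM on day 3 and 4.63 and 78.1 CPM on day 5 in Cpa3+/+. In Cpa3Cre/+ it had 37.2 and 24.6 CPM on day 3 and 1052, 984 and 110 CPM on day 5. All 3 Cpa3Cre/+ day 5 libraries lay above the other 6, and replicate 3 lay far below the other 2. The interaction was 4.72 ± 1.71 (edgeR unadjusted p = 0.0221, adjusted p = 0.605). Gsdmc2, a gasdermin of a family with near-identical copies, had 11.9 to 54.0 CPM in the other 6 libraries and 394, 523 and 59.6 CPM in Cpa3Cre/+ on day 5. Duox2, a hydrogen peroxide-producing oxidase, had 32.2 to 58.8 CPM in the other 6 libraries and 388, 403 and 85.8 CPM in Cpa3Cre/+ on day 5. Epithelial alarm and antimicrobial genes as a list did not rise with it. Of the 14 tested, 5 had a positive log2 fold change in 9 libraries (median −0.23). In 8 libraries 0 were called higher and 3 lower, against 8.76% and 14.3% of all genes. St3gal4, a sialyltransferase, had 5.95 to 30.3 CPM and 136, 144 and 71.8 CPM, and Clca1, a goblet cell metalloprotease that cleaves mucin, had 758 to 1167 CPM and 2549, 2228 and 1408 CPM. In each of these genes the 3 Cpa3Cre/+ day 5 libraries lay above the other 6, and the interaction was not called by edgeR in 9 libraries. The 15 tuft cell genes had 14 positive log2 fold changes in 9 libraries (median 0.32), and none was called there. Their medians were −0.01 within Cpa3+/+ and 0.57 within Cpa3Cre/+.

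**Figure D5:**
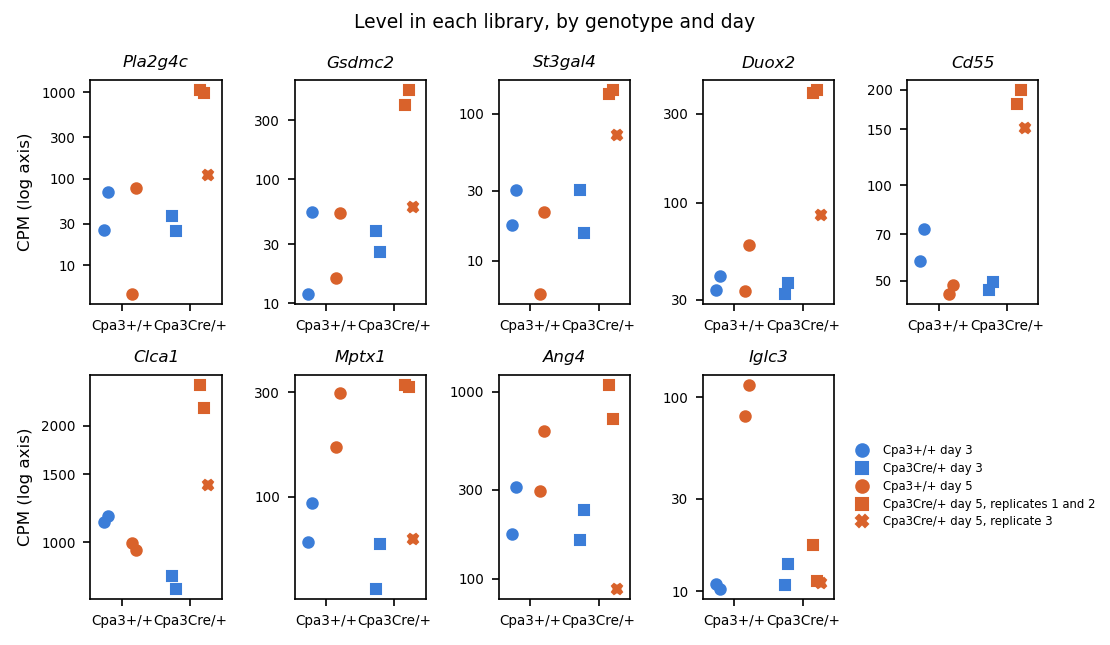
CPM on log axes of 9 genes in each library, by genotype (x axis) and day (blue day 3, orange day 5, crosses Cpa3Cre/+ day 5 replicate 3). Pla2g4c, Gsdmc2, St3gal4, Duox2, Cd55 and Clca1 are highest in Cpa3Cre/+ on day 5, Iglc3 is highest in Cpa3+/+ on day 5, and the crosses of Mptx1 and Ang4 lie within or below the day 3 values.

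Mast cell proteases, which include near-identical family members, were not called between the days. The 9 tested summed to 512 and 501 CPM on day 3 and 101 and 605 CPM on day 5 in Cpa3+/+. In Cpa3Cre/+ they summed to 52.9 and 66.2 CPM on day 3 and 76.9, 112 and 86.1 CPM on day 5. The low Cpa3+/+ day 5 library, replicate 1, is also the Cpa3+/+ library with the lowest Cpa3. Of 6 eosinophil genes tested 4 had a positive log2 fold change (median 0.36), with a summed level of 9.70 to 18.6 CPM on day 3 and 6.09 to 25.0 CPM on day 5. Of the 11 type 2 cytokine and producer genes tested 5 were positive (median −0.03), and Il4, Il5, Il9, Il13 and Il25 were too low to be tested.

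Metabolic and detoxification genes, like the table as a whole, held calls once Cpa3Cre/+ day 5 replicate 3 was left out, and their counts stand against 14.3% of all genes called lower in 8 libraries and 2.42% in the GC-adjusted 8. Of 27 nuclear genes of respiratory complexes I and III, 10 had a positive log2 fold change in 9 libraries (median −0.20), and 13 were called lower and 1 higher in 8. After GC adjustment 6 were called lower and 0 higher. The median was −0.66 within Cpa3+/+ (3 of 27 positive) and 0.21 within Cpa3Cre/+ (24 of 27 positive). Such differences between the genotypes were not tested for lists. Ndufa2, a complex I subunit, had 49.9 to 98.8 CPM on day 3, 18.9 to 27.5 CPM in 4 day 5 libraries and 127 CPM in Cpa3Cre/+ day 5 replicate 3. Uqcrq, a complex III subunit chosen after its values were seen, had 71.9 to 255 CPM on day 3, 31.0 to 37.3 CPM in the same 4 libraries and 265 CPM in that replicate. In both genes the 4 libraries lay below all day 3 libraries and the replicate above them. Ribosomal protein genes had 5 of 24 positive (median −0.24), with 11 called lower and 0 higher in 8 libraries and 6 and 0 after GC adjustment. Their medians were alike, −0.22 within Cpa3+/+ and −0.29 within Cpa3Cre/+. Rps18 had 159 to 245 CPM on day 3, 99.2 to 118 CPM in the 4 day 5 libraries and 206 CPM in the replicate.

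Cytochrome P450 genes had 3 of 15 positive (median −0.25), with 5 called lower and 0 higher in 8 libraries and 6 and 0 after GC adjustment. Their median was −0.66 within Cpa3+/+ (0 of 15 positive) and 0.06 within Cpa3Cre/+ (10 of 15 positive). Cyp2c29 had 1.39 to 2.94 CPM on day 3 and 0.472 to 1.57 CPM on day 5 (−1.23 ± 0.28, edgeR adjusted p = 0.133 in 9 libraries and 0.0288 in the GC-adjusted 8). Among 18 conjugating enzymes, which attach glutathione, glucuronide or sulfate to their substrates, 4 were positive (median −0.21), with 7 called lower and 0 higher in 8 libraries and 5 and 0 after adjustment. Gsta3, a glutathione transferase, had 10.5 to 19.7 CPM on day 3, 6.67 to 9.03 CPM in 4 day 5 libraries and 17.4 CPM in Cpa3Cre/+ day 5 replicate 3. Of 13 genes of fructose uptake and metabolism 2 were positive (median −0.34), and 3 were called lower in 8 libraries and 0 after adjustment. Within Cpa3+/+ and Cpa3Cre/+ the medians were −0.77 and 0.15 for the fructose genes and −0.38 and −0.01 for the conjugating enzymes. Slc2a7, a sugar transporter, had 47.9 to 75.3 CPM on day 3 and 19.0, 20.4, 40.6, 31.4 and 73.5 CPM on day 5.

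Heat shock chaperones had 10 of 12 positive (median 0.29), with 3 called higher and 1 lower in 8 libraries and none after GC adjustment. Over all genes 8.76% were called higher and 14.3% lower in 8 libraries. Hspd1, the mitochondrial chaperonin, had 413 to 452 CPM on day 3, 634 to 729 CPM in 4 day 5 libraries and 452 CPM in Cpa3Cre/+ replicate 3 (0.58 ± 0.18, edgeR adjusted p = 0.206 in 9 libraries and 0.00394 in 8). Hspb1, a small heat shock protein, lay on the other side without overlap, at 11.5 to 15.9 CPM on day 3 and 2.34 to 8.91 CPM on day 5. Enteroendocrine genes had 4 of 15 positive (median −0.29). Sct, which encodes secretin, had 21.6, 30.8, 15.7 and 12.5 CPM on day 3, 3.79 to 4.39 CPM in 4 day 5 libraries and 18.9 CPM in Cpa3Cre/+ day 5 replicate 3. It was called lower in 8 libraries (−2.21, edgeR adjusted p = 0.00111) and after GC adjustment (adjusted p = 0.00646), while in 9 libraries the adjusted p was 0.249.

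Among lists of the gut wall, interstitial cell of Cajal genes had 4 of 8 positive log2 fold changes (median 0.07), and endothelial genes had 7 of 12 (median 0.0057). The 16 enteric neuron and glia genes had 1 positive log2 fold change in 9 libraries (median −0.47), with a median of 0.11 within Cpa3+/+ and −0.996 within Cpa3Cre/+, and 3 were called lower and 0 higher in 8 libraries, near the 14.3% of all genes called lower there, and none after GC adjustment. Within Cpa3+/+ alone 11 of the 16 were positive. The 3 members called lower, Uchl1, Prph and Tubb3, did not overlap between the days, while 4.31% of all genes lay lower without overlap. Uchl1, a neuronal ubiquitin hydrolase, measured 12.9, 9.28, 12.9 and 11.6 CPM on day 3 and 3.47, 8.30, 5.99, 2.82 and 4.98 CPM on day 5. Prph, an intermediate filament of enteric neurons, had 10.7 to 13.7 CPM on day 3 and 2.34 to 8.23 CPM on day 5. The 15 smooth muscle genes had 2 positive (median −0.36), with medians of 0.23 within Cpa3+/+ (10 of 15 positive) and −0.97 within Cpa3Cre/+ and none called by edgeR in 9 or in 8 libraries. Their summed level ran from 1727 CPM in Cpa3Cre/+ day 5 replicate 2 to 6859 CPM in Cpa3Cre/+ day 3 replicate 1. How much wall a piece of tissue held was not measured, and its part in these values was not tested.

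Levels were last set beside the other 14 libraries of the series, in CPM scaled over all 23 libraries. The 9 unchallenged libraries (naive or immunized) had 35.0 to 58.5 CPM of Cyp51, a range that held the day 3 libraries except the lowest (34.2 to 37.5 CPM) and overlapped the day 5 libraries (55.8 to 61.3 CPM). For Hmgcs1 the unchallenged libraries had 126 to 188 CPM, day 3 98.7 to 111 CPM and day 5 141 to 166 CPM. Day 5 lay within the unchallenged range and day 3 below it. Rhbdf1 had a median of 10.8 CPM in unchallenged libraries (lowest 5.35 CPM), 13.6 to 16.1 CPM on day 3 and 4.05 to 5.81 CPM on day 5. With challenge day 1 added, the other 14 libraries had 25.9 to 68.0 CPM of Cyp51 and 64.9 to 188 CPM of Hmgcs1. Both ranges reach beyond the day 3 and the day 5 values on either side. For Rhbdf1 the 14 libraries had 5.35 to 34.2 CPM. Pla2g4c had 1.09 to 149 CPM in unchallenged libraries and Cd55 17.4 to 68.7 CPM, so the Cpa3Cre/+ day 5 libraries exceeded them for Cd55, and replicates 1 and 2 did for Pla2g4c.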

How the data were processed

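The data were gene expression counts from RNA sequencing of jejunum. Per the labels' protocols, RNA came from the PureLink RNA Mini kit and the libraries from a TruSeq stranded kit. STAR, featureCounts, Subread 1.5.1 and the builds mm10 and GRCm38 are named in the submitters' processing notes. For STAR's version, the strand setting of the counter and the release of the gene models, the answer is not given in the sources used here, so overlapping and antisense genes, and near-identical copies, cannot be told apart. The authors deposited raw counts per gene (55487 genes, 23 libraries), which were used as deposited. Of these genes, 55227 had a symbol and position, and the other 260 held 0.00137% of reads.

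Low genes were removed with edgeR's filterByExpr, TMM factors were computed, and CPM used them. The pooled comparison was fitted with edgeR 4.0.16 (robust quasi-likelihood, two-sided F test, genotype plus day) in R 4.3.3, which left 6 residual degrees of freedom, and the biological coefficient of variation was 27.0%. Benjamini-Hochberg adjustment ran over every gene tested (threshold 0.05). Interaction and within-genotype contrasts came from a model of 4 group means. Each standard error is the size of the log2 fold change divided by the root of F. Alternatives were DESeq2 1.42.0, its size factors, no filter, all 23 libraries with sex, females only, the 4 group means, a replicate block and leaving out each library. GC and length offsets (local regression, span 0.3) were added after seeing the data. The fit without Cpa3Cre/+ day 5 replicate 3 was also singled out after seeing them. GC values were known for 99.9% of genes tested. The fits were tested on simulated data with known fold changes.

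The comparison, the 53 gene lists and the members were chosen with earlier results of these data known, so lists are described by counts and medians and not tested. Named genes were the 12 with the smallest p in each direction with a mean of at least 1 CPM in either day (none being called), without predicted, Y-linked and antigen receptor segment genes and Xist. Per list up to 3 members with the smallest p were eligible, and Cpa3 was always given. Within genotypes and for the interaction, the called genes or the 3 with the smallest p were given. Ranges for other list members, and Fdft1, Sqle, Nsdhl, Mvk, Mvd, Srebf2, Elovl5 as a lipid gene, Junb, Olfm4, Uqcrq, Pla2g4c, Gsdmc2, Duox2, St3gal4 and Clca1 were chosen after their values were seen. Promoter windows are from RefSeq (GRCm38.p6). Some members of the lists are counted but not reported here by name.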

Additional observations from a re-analysis of the deposited data

Results flagged for a closer look

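In 21 of 190 groups examined (a gene or library measure within the libraries of 1 day, genotypes pooled), the highest or lowest library lay far from the others by Dixon's criterion. Chance flags about 1 in 20 groups of independent, normally spread values. These groups are not such: some genes were chosen after their values were seen, genes can move together, and the genotypes are pooled. The counts are therefore a description and not a test of any library. Of the 21, 15 were in Cpa3Cre/+ day 5 replicate 3.

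That library held 20932 detected genes, against 22510 to 22638 in the other day 5 libraries. It was the highest day 5 library for Apoa4 (33559 CPM, against 2278 to 9909 CPM), Creb3l3 (745 CPM, against 167 to 331 CPM) and Srebf1 (120 CPM, against 32.4 to 44.2 CPM) of fat metabolism, and for Mvk (15.6 CPM, against 5.73 to 7.49 CPM). It was also the highest for the respiratory genes Uqcrq (265 CPM, against 31.0 to 37.3 CPM) and Ndufa2 (127 CPM, against 18.9 to 27.5 CPM), and for the ribosomal genes Rps18 (206 CPM, against 99.2 to 118 CPM) and Rpl18 (455 CPM, against 133 to 190 CPM). The immediate early genes Ier2 (32.1 CPM, against 9.76 to 13.8 CPM) and Junb (45.9 CPM, against 3.22 to 9.51 CPM), secretin (Sct, 18.9 CPM, against 3.79 to 4.39 CPM), Gsta3 (17.4 CPM, against 6.67 to 9.03 CPM) and Scand1 (0.923 CPM, against 0 to 0.0827 CPM) were highest there too. Fasn was lowest there (27.8 CPM, against 33.3 to 34.2 CPM).

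Among day 3 libraries, Cpa3Cre/+ replicate 1 was highest for Fkbp5 (140 CPM, against 22.1 to 29.8 CPM), Reg3b (4011 CPM, against 381 to 873 CPM) and Cd36 (416 CPM, against 246 to 254 CPM). Cpa3Cre/+ day 3 replicate 2, the male, had the largest total count (19.3 M, against 13.97 to 14.25 M) and the highest Iglc3 (13.8 CPM, against 10.3 to 10.9 CPM). Ppp2r3d was lowest in Cpa3Cre/+ day 5 replicate 1 (9.59 CPM, against 10.8 to 11.1 CPM).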

How the results depend on the processing

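The count of genes called in the pooled comparison, 0 in 9 libraries, was 560 with DESeq2, 1101 without the filter on low counts, and 50 (all lower) in the fit of all 23 libraries with sex. In the GC-adjusted and the GC- and length-adjusted fits of 8 libraries it was 534 and 564. Over the fits that leave out 1 library it ran from 0 to 3751, the latter without Cpa3Cre/+ day 5 replicate 3. DESeq2 size factors, 4 group means, females only and GC adjustment of all 9 libraries gave 0. Higher calls were 38.0% of those in 8 libraries and 26.4% of those in the GC-adjusted 8. Interaction calls were 468 without the filter and 28 with DESeq2, and 0 to 2 over the left-out libraries (2 on leaving out replicate 2 of Cpa3+/+ day 5, and 2 on leaving out Cpa3Cre/+ day 5 replicate 3). Calls within Cpa3+/+ were 1433 without the filter, 615 with DESeq2 and 22 in all 23 libraries, and 0 to 2637 over the left-out libraries. Calls within Cpa3Cre/+ were 254 without the filter and 63 with DESeq2, and 0 to 289. The highest values of both came without Cpa3Cre/+ day 5 replicate 3. The causes were not tested.

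Correlations of same-numbered deviations from the group means were 0.05 in Cpa3+/+ and −0.09 and 0.29 in Cpa3Cre/+. In Cpa3+/+ the replicates of a group deviate from its mean by equal and opposite amounts, so both replicate numbers give the same value by construction. These few values cannot decide whether replicate numbers pair the libraries. With the replicate block, 3640 genes were called in the pooled comparison, 19 for the interaction, 3390 within Cpa3+/+ and 1259 within Cpa3Cre/+. The block holds Cpa3Cre/+ day 5 replicate 3 alone, so that library does not bear on the day, and 3315 of the 3640 were called in the same direction without it.

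Signs turned for 8 of the genes named, all in GC fits. In the order GC-adjusted, GC- and length-adjusted, and the same for 8 libraries, Mbd6 had 0.21, 0.18, 0.29 and 0.23, Srebf2 0.18, 0.14, 0.21 and 0.11, and Klf2 0.0808, 0.12, 0.26 and 0.32. Fasn had 0.11 with GC and 0.21 and 0.0034 in 8 libraries, and Mvd had 0.0443 and 0.0673 in 9 libraries. With GC and length in 8 libraries Ppig had −0.0261 and Hspb1 0.0349, and with GC in 8 Hspg2 had 0.0422. Depth limits low genes such as Retnlb most, and 2 or 3 libraries per group limit all of these results.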

Other observations

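The 10 B cell follicle and germinal centre genes tested had 9 positive log2 fold changes (median 0.45), with a summed level of 68.4 CPM in Cpa3+/+ day 5 replicate 2 and 27.6 to 42.4 CPM in the other 8 libraries, and edgeR called 1 higher in 8 libraries, against 8.76% of all genes. Of 19 T cell and intraepithelial lymphocyte genes 6 were positive (median −0.19), and of 28 interferon response genes 8 were (median −0.13), with none called in 9 libraries. Within Cpa3+/+ and Cpa3Cre/+ the medians were −0.65 and 0.27 for the T cell list and −0.45 and 0.04 for the interferon list. The 18 macrophage and dendritic cell genes had 11 positive (median 0.17), with 2 called higher in 8 libraries, near the 8.76% of all genes. They were lowest in sum in Cpa3Cre/+ day 5 replicate 3 (186 CPM, against 289 to 493 CPM). That library was also the lowest for the 12 endothelial genes (123 CPM, against 224 to 350 CPM) and the 16 fibroblast and matrix genes (946 CPM, against 1209 to 1854 CPM).

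The 13 mitochondrially encoded genes had 11 positive log2 fold changes (median 0.24), while the nuclear genes of complexes I and III had a median of −0.20, both with genotypes pooled. None of the former was called in 9 or in 8 libraries. Scand1, a gene of a SCAN domain protein with a transcript GC content of 68.4%, ran from 22.9 and 38.3 CPM in Cpa3+/+ day 3 to 0.914 and 0.405 CPM in Cpa3Cre/+ day 3 and 0 to 0.923 CPM in the 5 day 5 libraries. In the other 14 libraries of the series it lay between 0.239 and 23.5 CPM. It was chosen after its values were seen.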
